A study of Mus musculus with 4 samples.

Results

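The mitochondrial ribosomal protein genes were taken as the rows of the deposited table whose annotation gives exactly 1 gene symbol of the form Mrpl or Mrps followed by a number, without pseudogenes, and the row with the highest mean stood for a gene with several rows. This gave 77 genes of the 19938 with a row, 48 Mrpl genes named for the large subunit and 29 Mrps genes named for the small subunit. RNA of cultured mouse lung fibroblasts was measured on 4 Affymetrix arrays. KrasD12 A and B came from line 493, whose genotype is labelled KrasD12, and WT A and B came from line 494, which is wild type. Both were untreated primary lines grown out of collagenase-digested lungs of mice 3 to 4 weeks old, in DMEM with 20% serum, and the labels name no Cre driver. The submitters describe the cells as myofibroblasts, judged by immunofluorescence. With a single line per genotype, the effects of genotype and of line cannot be told apart. The labels leave unsaid how A and B of a line were obtained, and p-values therefore measure only their spread, which may be technical.

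Mitochondria carry their own ribosome, which translates the few mRNAs of the mitochondrial DNA into core subunits of the respiratory chain and the ATP synthase. Its rRNAs come from the mitochondrial DNA, but its proteins are encoded in the nucleus, made in the cytosol and imported, so that assembly needs products of both genomes. Part of the proteins descend from the bacterial ribosome, and part were added in mitochondria. The small subunit reads the mRNA and the large subunit forms the peptide bond at the inner membrane.

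The deposited values are log2 expression values, and differences are KrasD12 minus WT on that scale. The column medians over all rows were 6.24 and 6.26 in KrasD12 A and B and 5.90 and 5.91 in WT A and B, and the median difference over all genes was 0.26. A gene is therefore said to have risen or fallen only if limma (two-sided, Benjamini-Hochberg adjusted p under 0.05 over all genes) called it with the same sign both on the deposited values and again after quantile normalization of the 4 columns, which brought the median difference of all genes to -0.00375. Every ± is limma's moderated standard error (n = 2 per group). All 77 genes had means over the 4 samples above 5.15, the level under which dim rows lie (the 95th percentile of olfactory and vomeronasal receptor rows). Of 10 fibroblast markers 10 lay above that level, with list means of 11.236 to 11.252 in KrasD12 and 11.344 to 11.345 in WT. Markers of other cells lay nearer to it: the list means ran from 5.24 to 5.33 in KrasD12 and 4.93 to 4.96 in WT for 8 epithelial genes, 4.98 to 5.01 and 4.62 to 4.78 for 6 endothelial genes, 5.07 to 5.11 and 4.88 to 4.90 for 8 leukocyte genes, and 5.78 to 5.85 and 5.58 to 5.63 for 4 mesothelial genes. Means over the 4 samples lay above that level for 4 of the 8 epithelial and 2 of the 6 endothelial genes. The same held for 4 of the 8 leukocyte and 3 of the 4 mesothelial genes. Among the others, Epcam, Cdh5, Pecam1 and Ptprc had means below that level in both groups. Of the 8 leukocyte genes 2 rose, Cd79a at 1.02 and Adgre1 at 0.625, and 2 fell, Lyz2 at -1.475 and Cd14 at -0.445. Both rises lay below the level of dim rows: Cd79a averaged 4.4 against a WT value of 3.38, and Adgre1 4.19 against 3.565. Lyz2 was below that level in KrasD12 only, at 4.63, and Cd14 in neither group. Of the epithelial genes 1 rose, Sftpc at 0.92, from a WT mean of 4.345, also below that level. Of the fibroblast genes 2 rose and 3 fell. For comparison, 22.4% of all genes rose and 11.5% fell. The part of other cells in the results was not tested.

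The mitochondrial ribosomal protein genes that passed the test on both scalings fell more often than they rose in KrasD12, while most of the genes did not pass it. Of the 77 genes, 6 rose and 16 fell, while 55 did not pass on both scalings, a share of 7.79% and 20.8%, where 22.4% and 11.5% of all 19938 genes rose and fell. In RNA of whole cultures a change in the makeup of the cells and a change in RNA per cell cannot be told apart. No gene reached a 2-fold difference (0 of 77), and the differences ran from -0.84 for Mrps21 to 0.625 for Mrps2. On the deposited values alone 21 were called higher and 16 lower, against 50.1% and 11.9% of all genes, and after quantile normalization alone 6 were higher and 30 lower, against 22.5% and 24.4%. The 16 falls were therefore called on each scaling, while 15 genes were called higher on the deposited values only and 14 lower on the quantile scale only. Quantile normalization lowered the difference of each of the 77 genes. For them the second scaling could thus end calls of rises but hardly those of falls, and it is no even check of both. Of all genes, 11.9% were called lower on the deposited values and 11.5% on both scalings, against 50.1% and 22.4% higher. The median difference of the 77 genes was 0.05 (0.045) deposited and -0.18 after quantile normalization. Over the 3583 genes with means between the quartiles of the 77 genes (7.23 to 8.39), the same medians were 0.19 and 0.0025, with 24.6% rising and 14.8% falling. Without WT A or WT B a single WT sample is left, and the calls on the deposited values did not hold. The median deposited difference was then 0.025 and -0.0075 for Mrpl genes, and 0.02 and 0.06 for Mrps genes. On the quantile scale the medians without WT A and without WT B were -0.16 and -0.21 for Mrpl genes, and -0.16 and -0.14 for Mrps genes. All 22 genes kept their sign in each of these fits. On the deposited values this was fixed in advance, since the groups did not overlap in any of the 22 genes.

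**Figure D1:**
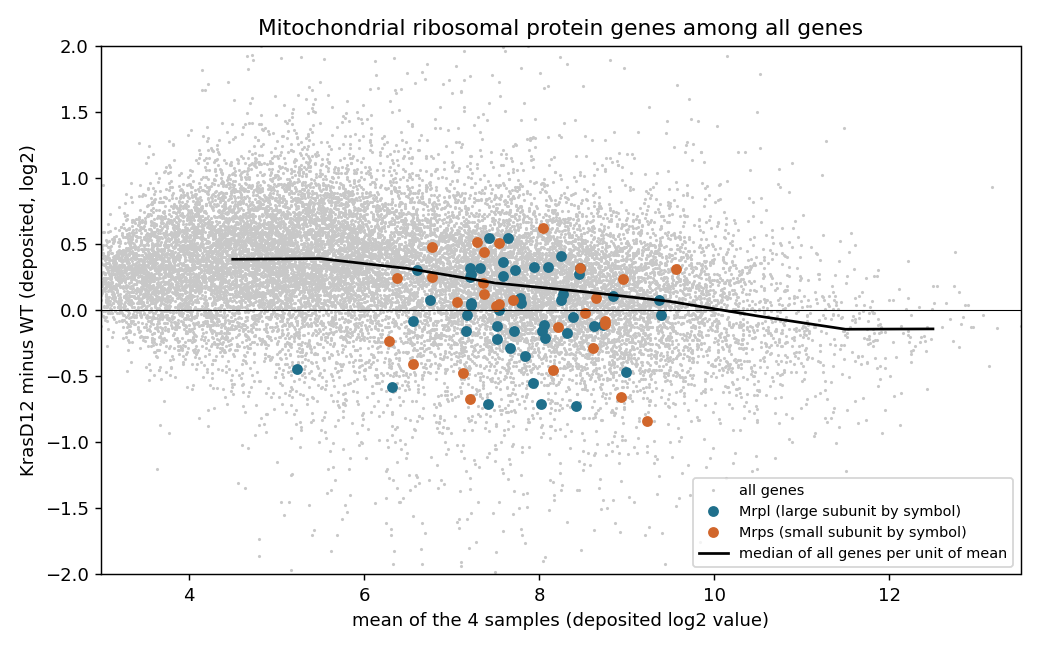
Difference between KrasD12 and WT (deposited log2 values) against the mean of the 4 samples, for all genes (grey), Mrpl genes and Mrps genes, with the median of all genes per unit of mean as a line. The 77 genes lie at means of 5.24 to 9.56, and 16 of them fell while 6 rose. 240 genes lie outside the axes.

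On the deposited values the largest fall was that of an Mrps gene, and after quantile normalization that of Mrpl16. Mrps21, which encodes the counterpart of bacterial S21, a small protein of the mRNA-binding platform, measured 8.85 and 8.78 in KrasD12 A and B, against 9.65 and 9.66 in WT A and B. It fell by 0.84 ± 0.07, a 1.79-fold lower value (limma adjusted p = 0.000822), and the groups did not overlap. Mrps14, an rRNA-binding protein of the head of the subunit, measured 6.89 and 6.87 in KrasD12 A and B, against 7.49 and 7.61 in WT A and B, and fell by 0.67 ± 0.07 (limma adjusted p = 0.00159). Mrps18c, the counterpart of bacterial S18 in the platform, measured 8.65 and 8.57 in KrasD12 A and B, against 9.32 and 9.22 in WT A and B, and fell by 0.66 ± 0.08 (limma adjusted p = 0.0017). In each of these genes both KrasD12 samples lay below both WT samples, as in 18.7% of all genes. Mrps10, a protein of the head, fell by 0.48, Mrps33 by 0.455, Mrps27, which carries pentatricopeptide repeats, by 0.41 and Mrps23 by 0.285. Their KrasD12 values were 6.90 and 6.88 against WT values of 7.35 and 7.39 for Mrps10, and 8.0 and 7.87 against 8.39 and 8.39 for Mrps33. After quantile normalization these 7 falls were larger, from -0.39 for Mrps23 to -0.92 for Mrps14.

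Of the 29 Mrps genes 4 rose. Mrps2, an rRNA-binding protein between head and body of the small subunit, measured 8.33 and 8.39 in KrasD12 A and B, against 7.76 and 7.71 in WT A and B. It rose by 0.625 ± 0.07 (limma adjusted p = 0.00155), a 1.54-fold higher value, and by 0.46 after quantile normalization (limma adjusted p = 0.00404). Mrps30 measured 7.56 and 7.53 in KrasD12 A and B, against 7.04 and 7.02 in WT A and B, and rose by 0.515 ± 0.07. Despite its symbol its protein sits in the large subunit. Mrps9, whose bacterial counterpart reaches with its tail to the P-site tRNA, measured 7.89 and 7.71 in KrasD12 A and B, against 7.34 and 7.25 in WT A and B, and rose by 0.505 ± 0.09. Mrps15, an rRNA-binding protein of the platform, measured 9.76 and 9.67 in KrasD12 A and B, against 9.42 and 9.39 in WT A and B, and rose by 0.31 ± 0.07. All 4 had both KrasD12 samples above both WT samples, as had 64.3% of all genes. Their quantile differences were 0.46, 0.28, 0.30 and 0.25 in the order given, with limma adjusted p of 0.00404 to 0.0326. When each column was centred on its median, Mrps2 alone of these stayed called, at 0.28 (limma adjusted p = 0.0198). Mrps30 then stood at 0.17, Mrps9 at 0.16 and Mrps15 at -0.035 (limma adjusted p = 0.0933, 0.20 and 0.728).

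Of the 48 Mrpl genes 9 fell and 2 rose. Mrpl11, at the base of the stalk that recruits translation factors, measured 8.18 and 7.94 in KrasD12 A and B, against 8.73 and 8.84 in WT A and B. It fell by 0.725 ± 0.10 (limma adjusted p = 0.00307). Mrpl16, the counterpart of the bacterial protein next to the peptidyl transferase centre, measured 7.19 and 6.93 in KrasD12 A and B, against 7.64 and 7.90 in WT A and B, and fell by 0.71 ± 0.13. The groups did not overlap in either gene. Mrpl42, an addition of mitochondria, measured 6.09 and 5.97 in KrasD12 A and B, against 6.56 and 6.67 in WT A and B, and fell by 0.585. Mrpl51, another such addition, measured 8.76 and 8.76 in KrasD12 A and B, against 9.26 and 9.20 in WT A and B, and fell by 0.47. Their groups did not overlap. Mrpl36, a very short protein with a bacterial counterpart, fell by 0.55, Mrpl48, of the central protuberance, by 0.345, Mrpl35 by 0.285 and Mrpl40 by 0.215, the smallest of the falls. Mrpl41, at -0.71, has a second row that disagrees with it. Quantile differences of the 9 falls ran from -0.38 for Mrpl40 to -0.93 for Mrpl16.

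The rises among the Mrpl genes were those of Mrpl37 and Mrpl14. Mrpl37, an addition of mitochondria that belongs to the same protein family as Mrps30, measured 7.90 and 7.94 in KrasD12 A and B, against 7.47 and 7.28 in WT A and B. Mrpl14, which sits at the interface to the small subunit, measured 7.58 and 7.81 in KrasD12 A and B, against 7.21 and 7.09 in WT A and B. Both rose by 0.545 on the deposited values (limma adjusted p = 0.00438 and 0.0071) and by 0.34 and 0.32 after quantile normalization (limma adjusted p = 0.0217 and 0.049). The KrasD12 samples of both genes lay above the WT samples, as in 64.3% of all genes. Median centring left both at 0.20 and ended both calls (limma adjusted p = 0.109 and 0.136). Just outside the calls on both scalings stood Mrpl4, whose bacterial counterpart reaches into the peptide tunnel, and Mrps35, at 0.41 and 0.44 deposited and 0.26 and 0.21 quantile (limma adjusted p = 0.0507 and 0.0532 on the quantile scale). Mrpl40, Mrpl4 and Mrps35 were named after their values were seen.

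**Figure D2:**
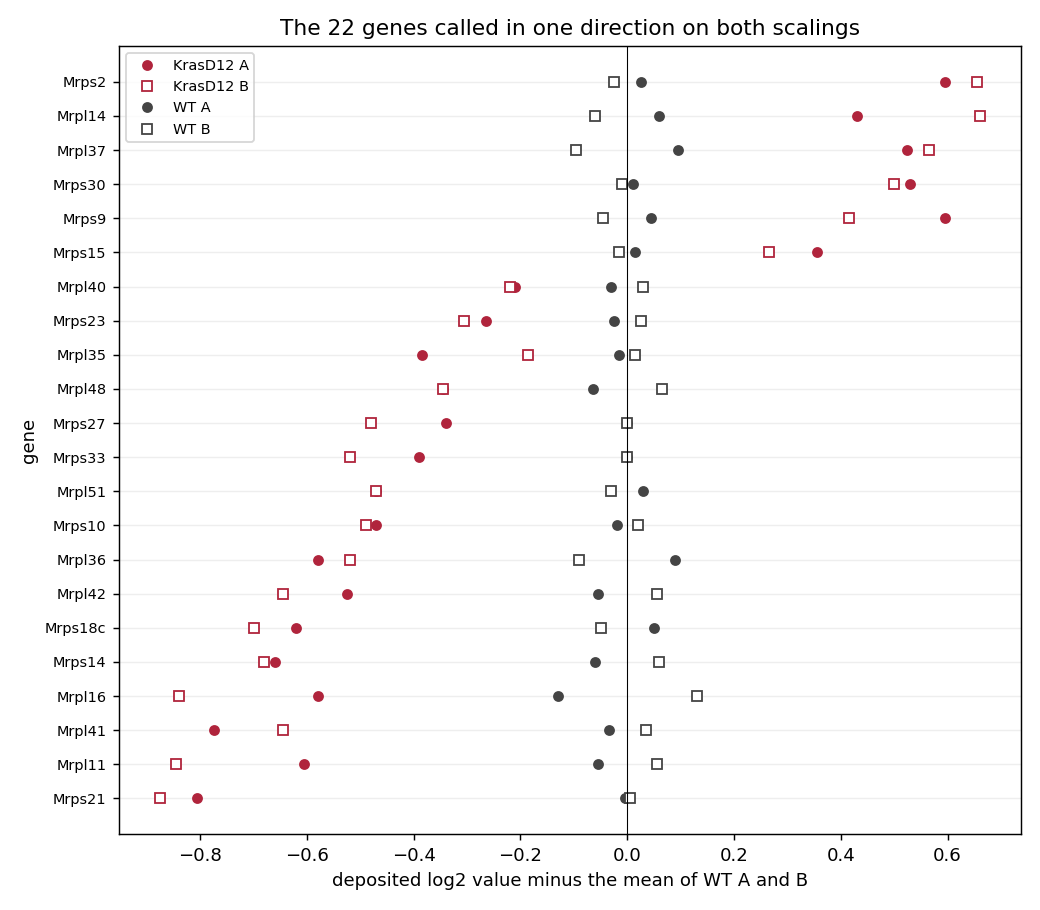
Deposited log2 value of each sample minus the mean of WT A and B (x axis) for the 22 genes that rose or fell, 1 line per gene; filled points are A and open squares B, KrasD12 in red and WT in grey. In all 22 genes the KrasD12 and WT samples do not overlap, with 6 genes to the right of WT and 16 to the left. These genes were chosen by their calls, which favour such gaps. Of all 19938 genes 64.3% lay above WT and 18.7% below it in this way.

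Counted over all 77 genes, 29 had both KrasD12 samples above both WT samples, 28 had both below, and 20 overlapped on the deposited values. Of all 19938 genes 64.3% lay above and 18.7% below in this way. Over the 77 genes, sample A minus sample B had an SD of 0.15 for KrasD12 and 0.12 for WT. The SD was 0.35 to 0.38 when a KrasD12 sample was set against a WT sample. Over all genes the SD was 0.16 within KrasD12, 0.15 within WT and 0.48 to 0.50 between the groups. Mrpl22, whose bacterial counterpart lines the peptide tunnel, was the dimmest gene and had the widest spread in KrasD12, with values of 4.73 and 5.30 in KrasD12 A and B, against 5.64 and 5.28 in WT A and B. Its difference of -0.445 ± 0.22 was not called on the deposited values (limma adjusted p = 0.123) and was -0.84 and called after quantile normalization (limma adjusted p = 0.0138). The KrasD12 mean of Mrpl22, 5.015, lay below the level of dim rows. This gene was named after its values were seen.

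**Figure D3:**
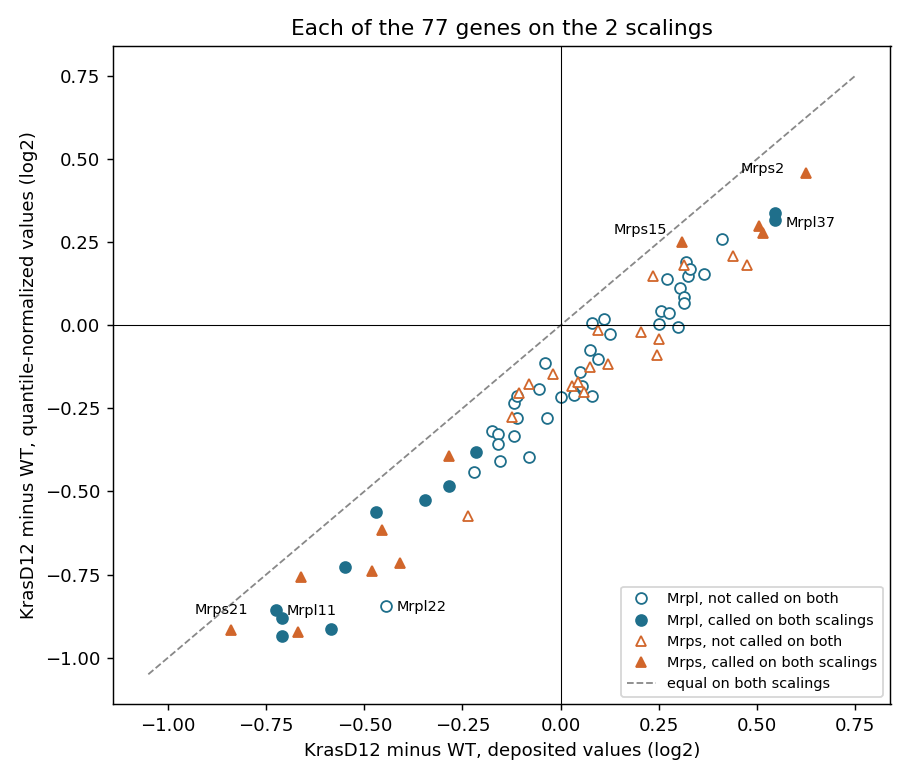
Difference between KrasD12 and WT on the deposited values (x axis) and after quantile normalization (y axis) for the 77 genes, circles for Mrpl and triangles for Mrps, filled where called in the same direction on both scalings. All points lie below the dashed line of equal values, with Mrps21 lowest and Mrps2 highest on the x axis.

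Genes of both subunits rose and fell, and no test of 1 subunit against the other was made, since the genes were chosen with results known. By symbol, 2 of 48 Mrpl genes rose and 9 fell, and 4 of 29 Mrps genes rose and 7 fell, that is 4.17% and 18.8% against 13.8% and 24.1%. The median difference was 0.02 (0.0175) for Mrpl genes and 0.06 for Mrps genes on the deposited values, and -0.20 and -0.15 (-0.1475) after quantile normalization. The median level of the Mrpl genes was 7.73 and 7.79 in KrasD12 A and B and 7.75 (7.745) and 7.80 in WT A and B. That of the Mrps genes was 7.72 and 7.71 in KrasD12 A and B and 7.50 and 7.61 in WT A and B. The gap between these medians, large minus small, was 0.01 and 0.08 in KrasD12 and 0.245 and 0.19 in WT. Symbols and structure disagree for 3 genes: the proteins of Mrps18a and Mrps30 sit in the large subunit, and that of Mrps36 is now known as a part of the oxoglutarate dehydrogenase complex. Placed by structure, 3 of 50 large subunit genes rose and 9 fell, and 3 of 26 small subunit genes rose and 7 fell. Deposited medians were 0.04 (0.0425 and 0.0375) in both, and quantile medians -0.19 and -0.17. The median level of small subunit genes was then 7.805 and 7.735 in KrasD12 A and B and 7.59 and 7.63 in WT A and B. That of large subunit genes was 7.73 and 7.79 in KrasD12 A and B and 7.745 and 7.80 in WT A and B.

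Genes with a bacterial counterpart and genes added in mitochondria also moved both ways. Of 46 genes with a bacterial counterpart 4 rose and 8 fell (8.70% and 17.4%), and of 28 mitochondrial additions 2 rose and 8 fell (7.14% and 28.6%), against 22.4% and 11.5% of all genes. Their median differences were 0.05 (0.0525) and 0.02 (0.0175) deposited and -0.14 and -0.20 after quantile normalization. This grouping, from general knowledge of the ribosome, was made after the values were seen and leaves out Mrps18a, Mrps18b and Mrps36. Mrpl55, placed in the group with a bacterial counterpart, was not called on either scaling. The 77 genes lie on 17 chromosomes, with 11 of them on chromosome 11.

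**Figure D4:**
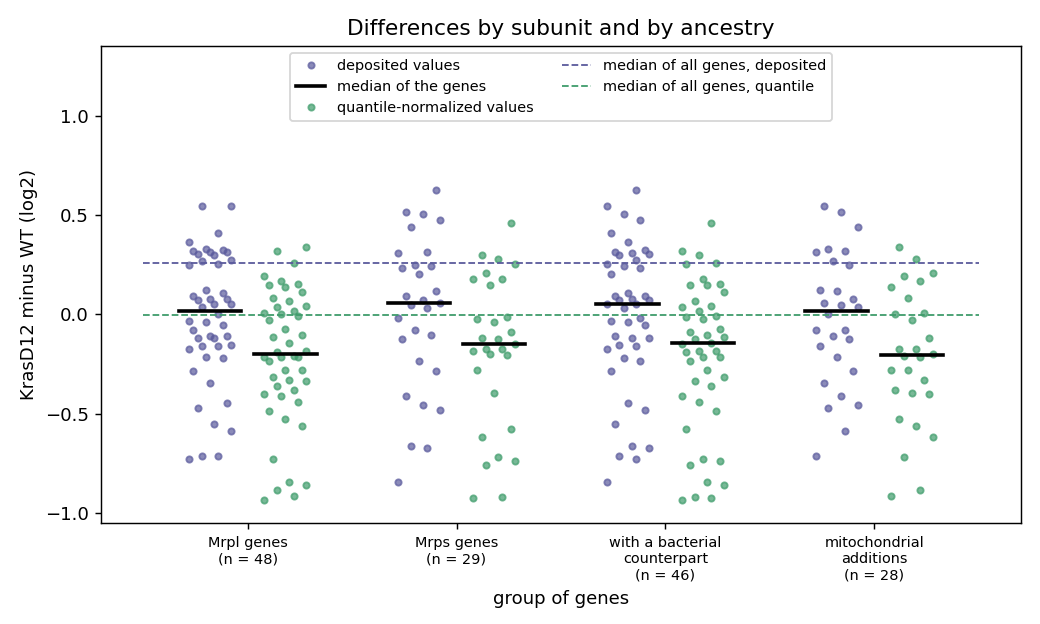
Difference between KrasD12 and WT of each gene, grouped by symbol (Mrpl, Mrps) and by ancestry, deposited values in blue and quantile-normalized values in green, with the median of the genes as a bar and the median of all genes as dashed lines. Every group spans differences on both sides of 0, and each bar lies below the dashed line of its scaling.

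Genes chosen for their role gave mixed values. The 3 paralogues of bacterial S18 differed among themselves: Mrps18c fell by 0.66, Mrps18b differed by -0.105 ± 0.07 (limma adjusted p = 0.222) and Mrps18a by 0.315 ± 0.09 (limma adjusted p = 0.029, but 0.143 after quantile normalization, at 0.18). Mrps18a measured 8.62 and 8.62 in KrasD12 A and B, against 8.20 and 8.41 in WT A and B, and Mrps18b 8.72 and 8.69 in KrasD12 A and B, against 8.84 and 8.78 in WT A and B. The groups did not overlap in either, in opposite directions. Of the stalk proteins, Mrpl10 measured 8.85 and 8.95 in KrasD12 A and B, against 8.78 and 8.80 in WT A and B, a difference of 0.11 ± 0.07 (limma adjusted p = 0.226). Mrpl12, which forms the mobile part of the stalk and also binds the mitochondrial RNA polymerase, measured 7.80 and 7.95 in KrasD12 A and B, against 7.65 and 7.49 in WT A and B, a difference of 0.305 ± 0.09 that was called on the deposited values only (limma adjusted p = 0.0345, and 0.375 at 0.11 after quantile normalization). Beside these 2, the stalk base gene Mrpl11 fell, as given above. Mrps12, of the decoding centre, measured 7.02 and 7.0 in KrasD12 A and B, against 6.44 and 6.63 in WT A and B, which was 0.475 ± 0.09 deposited and 0.18 on the quantile scale, where it was not called (limma adjusted p = 0.126). Median centring turned Mrpl10 to -0.24 (-0.235), Mrpl12 to -0.04 and Mrps18a to -0.03. Mrpl45, which anchors the ribosome at the inner membrane, differed by -0.11 ± 0.07 and Mrpl44, with an RNase III-like fold, by 0.035 ± 0.08, neither called on the deposited values (limma adjusted p = 0.232 and 0.731). After quantile normalization Mrpl45 stood at -0.28 and was called lower (limma adjusted p = 0.0246), and Mrpl44 turned to -0.21.

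8 of the 77 genes had a second row, and on the deposited values the rows disagreed in sign for 4 of them. Nothing in the annotation used says which of the rows measures the gene itself. The row used for Mrpl41 measured 7.60 and 7.73 in KrasD12 A and B, against 8.34 and 8.41 in WT A and B, a fall of 0.71, while its other row measured 7.14 and 7.07 in KrasD12 A and B, against 6.65 and 6.74 in WT A and B, a difference of 0.41 (quantile -0.88 and 0.14). The fall of Mrpl41 therefore rests on the choice of row, and with the mean of the rows its difference was -0.15 and not called. The deposited differences of the used and the other row were 0.30 and -0.53 for Mrpl47, 0.25 and -0.195 for Mrps36, and 0.205 and -0.27 for Mrps5. After quantile normalization both rows of these 3 genes were below 0, at -0.00625 and -0.87 for Mrpl47, -0.04 and -0.53 for Mrps36, and -0.022 and -0.51 for Mrps5. The rows of Mrpl51 (-0.47 and -0.53, exactly -0.525), Mrps33 (-0.46 and -0.16, exactly -0.455 and -0.155), Mrpl23 (-0.12 and -0.14) and Mrpl27 (-0.16 and -0.49) had the same sign.

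Promoters are shown for the largest rise and the largest fall of each subunit, so that the sequence upstream of genes that moved in opposite directions can be set side by side (Mrpl37 shares the largest Mrpl rise with Mrpl14). Sequences are from RefSeq, build GRCm38.p6, 250 bases up to the annotated start, 5′ to 3′ on the gene's strand, with motif matches in capitals. The rises are those of Mrpl37 (chr4:107066867-107067116, minus strand) and Mrps2 (chr2:28467816-28468065, plus strand), and the falls those of Mrpl11 (chr19:4962056-4962305, plus strand) and Mrps21 (chr3:95871515-95871764, minus strand).
Mrpl37: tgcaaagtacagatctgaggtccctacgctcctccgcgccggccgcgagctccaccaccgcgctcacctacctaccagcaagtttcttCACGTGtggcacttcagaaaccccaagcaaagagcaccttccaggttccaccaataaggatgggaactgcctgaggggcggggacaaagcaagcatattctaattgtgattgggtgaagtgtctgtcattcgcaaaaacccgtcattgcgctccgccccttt
Mrps2: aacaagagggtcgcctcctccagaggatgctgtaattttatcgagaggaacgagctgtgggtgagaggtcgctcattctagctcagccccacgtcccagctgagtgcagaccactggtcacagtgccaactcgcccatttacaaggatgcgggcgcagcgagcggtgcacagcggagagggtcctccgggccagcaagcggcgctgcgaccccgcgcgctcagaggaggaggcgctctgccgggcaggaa
Mrpl11: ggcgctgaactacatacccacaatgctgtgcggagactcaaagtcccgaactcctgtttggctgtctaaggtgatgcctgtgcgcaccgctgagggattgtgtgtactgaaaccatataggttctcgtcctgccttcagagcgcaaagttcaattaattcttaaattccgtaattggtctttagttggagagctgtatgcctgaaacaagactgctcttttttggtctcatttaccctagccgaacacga
Mrps21: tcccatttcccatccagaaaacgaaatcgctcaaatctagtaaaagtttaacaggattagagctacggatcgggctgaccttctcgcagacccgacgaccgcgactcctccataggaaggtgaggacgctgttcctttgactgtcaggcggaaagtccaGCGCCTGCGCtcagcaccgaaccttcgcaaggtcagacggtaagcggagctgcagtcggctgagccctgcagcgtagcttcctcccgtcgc
The capitals mark an E-box in Mrpl37 and a match to the motif of NRF1 on the opposite strand in Mrps21, and Mrps2 and Mrpl11 hold none of the motifs searched in the bases shown. A match is a run of letters and not a measured binding site.

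Promoters of 68 of the 77 genes were matched by gene ID. In windows of 300 bases, 250 before and 50 after the start, both strands were searched for GCGCA and GCGC with any 1 base between them (NRF1, a transcription factor of nuclear genes for mitochondria), CCGGAAG (ETS factors, among them GABP), AAGATGG followed directly by CGG (YY1), CACGTG (the E-box that Myc can bind) and TATAAA (the TATA box). A gene was counted if any of its windows held a match, and matches of different motifs overlapped in 0 of the 74 windows. The ETS motif stood in 25 of the 68 genes (36.8%), against 13.8% of 15006 protein-coding genes with a row and a promoter, and the NRF1 motif in 13 (19.1%), against 8.03%. The YY1 motif stood in 5 (7.35%), against 1.53%, the E-box in 5 (7.35%), against 9.58%, and the TATA box in 5 (7.35%), against 13.8%. Among the 6 genes that rose, 0 held the ETS motif and 2 the NRF1 motif, and among the 16 that fell, 7 held the ETS motif and 1 the NRF1 motif. Of the 46 matched genes not called on both scalings, 18 held the ETS motif and 10 the NRF1 motif. Median GC content of the windows was 58.2% in both the genes that rose and those that fell, and the median gene span was 9801 and 7426 bp, against 57.7% and 19188 bp in the protein-coding genes.

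Other genes of mitochondrial translation and gene expression came from lists chosen with earlier results known, and their counts are to be read against the 22.4% and 11.5% of all genes that rose and fell and the medians of all genes, 0.26 deposited and -0.00375 quantile. Of 30 genes listed as assembly and rRNA maturation factors 3 rose and 4 fell (10% and 13.3%), with medians of 0.21 deposited and -0.07 quantile. Mettl15, a methyltransferase of the small subunit rRNA, measured 5.22 and 5.24 in KrasD12 A and B, against 6.37 and 6.50 in WT A and B, and fell by 1.205 ± 0.08 (limma adjusted p = 0.000544). Its KrasD12 mean of 5.23 lies at the edge of the dim rows. Pusl1, a pseudouridine synthase-like protein, rose by 0.78 ± 0.11 (quantile 0.56). The list includes by mistake Dhx37, a factor of the cytosolic ribosome, which was not called.

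Of 15 translation factors 2 rose and 1 fell (13.3% and 6.67%), with medians of 0.225 deposited and 0.06 quantile. Mtfmt, which formylates the initiator tRNA, rose by 0.545 ± 0.07 (quantile 0.31), and Oxa1l, which inserts new proteins into the inner membrane, by 0.355 ± 0.08 (quantile 0.28). Of 19 genes for charging mitochondrial tRNAs 4 rose (21.1%, against 22.4% of all genes) and 0 fell on both scalings, while 8 were called lower after quantile normalization alone, where 24.4% of all genes were. Their medians were 0.01 deposited and -0.19 quantile. Pars2 and Vars2, the prolyl and valyl enzymes, rose by 0.90 ± 0.12 and 0.71 ± 0.07 (quantile 0.51 and 0.51). None of 4 mitochondrial ribosomal proteins with other symbols (0 of 4; medians 0.29 deposited and 0.10 quantile) was called on both scalings, with Ptcd3 at 0.44 ± 0.14 and, after quantile normalization, 0.26 (limma adjusted p = 0.152).

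Of 15 genes of mitochondrial transcription and mRNA stability 5 rose and 2 fell (33.3% and 13.3%, against 22.4% and 11.5% of all genes), with medians of 0.19 deposited and -0.11 quantile. Lrpprc, which binds mitochondrial mRNAs, measured 9.78 and 9.71 in KrasD12 A and B, against 8.97 and 8.99 in WT A and B, and rose by 0.765 ± 0.07 (limma adjusted p = 0.00099, quantile 0.70). Its binding partner Slirp measured 7.51 and 7.79 in KrasD12 A and B, against 8.45 and 8.25 in WT A and B, and fell by 0.70 ± 0.12 (limma adjusted p = 0.00584, quantile -0.87). The partners thus moved in opposite directions, with no overlap of the groups in either. Twnk, the helicase of mitochondrial DNA, rose by 0.72 ± 0.07 (quantile 0.45), the mitochondrial RNA polymerase gene Polrmt by 0.56 ± 0.07 and Tfam, which packs mitochondrial DNA, by 0.545 ± 0.10. Slirp, Polrmt and Tfam were named after their values were seen.

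Among 10 regulators of mitochondrial biogenesis 3 rose and 1 fell (30% and 10%, against 22.4% and 11.5% of all genes), with medians of 0.28 deposited and 0.09 quantile. Ppargc1a, a coactivator of mitochondrial genes, measured 5.99 and 6.09 in KrasD12 A and B, against 5.02 and 5.0 in WT A and B, and rose by 1.03 ± 0.07 (limma adjusted p = 0.000649, quantile 0.65). Its WT mean of 5.01 is below the level of dim rows. Nrf1, whose motif is counted above, rose by 0.47 ± 0.07 (quantile 0.22), and Yy1 by 0.42 ± 0.07 (quantile 0.35). Pprc1, a relative of Ppargc1a, fell by 0.45 ± 0.07, and Gabpa and Myc were not called, at 0.055 and 0.065. Yy1, Pprc1, Gabpa and Myc were named after their values were seen. Of the mitochondrial DNA, ND3 and COX2 had a row: ND3, a subunit of complex I, fell by 0.52 ± 0.09 (quantile -0.35), and COX2 stood at -0.28 ± 0.08, or -0.18 and not called after quantile normalization. Of 17 cytosolic ribosomal protein genes 0 rose and 2 fell (11.8%), Rpl7 by 0.37 and Rpl38 by 0.325, with a list median of -0.04 deposited and -0.01 quantile.

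**Figure D5:**
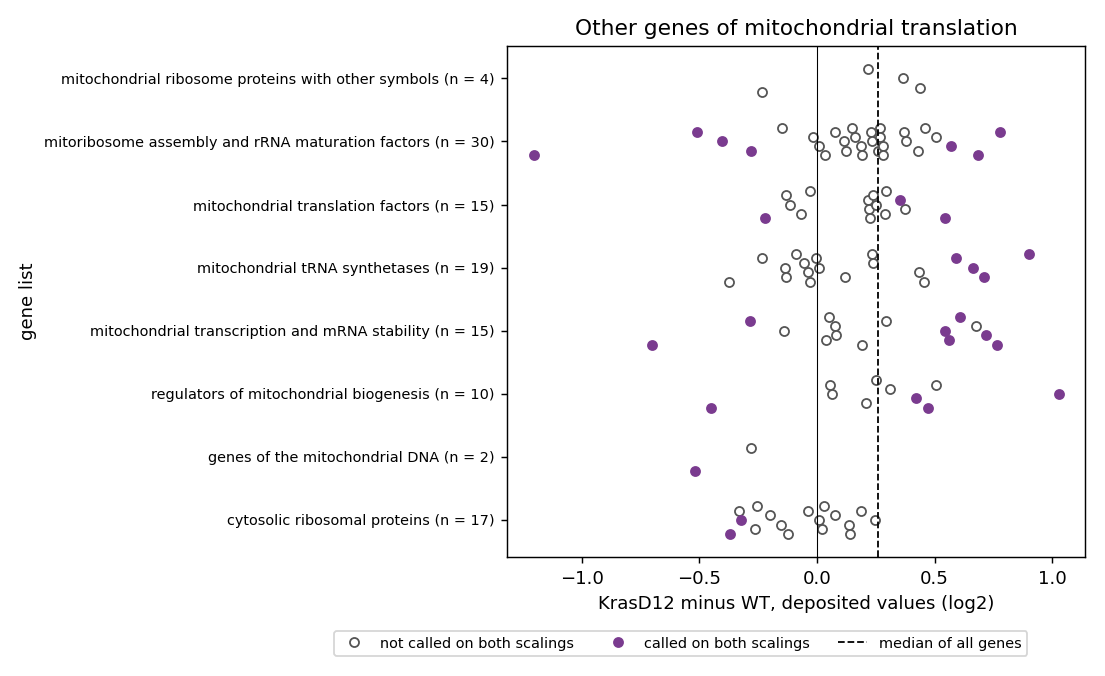
Difference between KrasD12 and WT (deposited log2 values, x axis) of the genes of 8 lists around mitochondrial translation, filled where called in the same direction on both scalings, with the median difference of all genes as a dashed line. Filled points lie on both sides of 0 in 4 of the lists, with Mettl15 lowest and Ppargc1a highest.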

How the data were processed

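Total RNA of 4 samples was labelled with biotin and hybridised to Affymetrix arrays. The authors deposited log2 expression values per probe set, made with Transcriptome Analysis Console per the submitters' processing notes; how background was corrected and columns were normalized is not given in the sources used here. Of 28944 rows, 21789 had 1 gene symbol, 1621 several and 5534 none, and only rows with 1 symbol were used; 21698 matched the RefSeq gene table (GRCm38.p6). A gene with several rows (999 of 19938) was represented by the row with the highest mean.

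KrasD12 and WT samples were compared with limma 3.58.1 (R 4.3.3; lmFit and eBayes, Benjamini-Hochberg adjustment over all 19938 genes, threshold 0.05, no filter, no covariate), tested on simulated data first. Because the column medians of the deposited values differed between the groups, calls were also required after quantile normalization, a rule added after seeing the data. Lists are described by counts and medians beside those of all genes. The members and lists were chosen with earlier results of these data known. Named Mrpl and Mrps genes are up to 8 per subunit and direction by size of the difference among called genes, plus genes named for their role, and the 2 largest called differences per pathway list; other genes are markers, genes with 2 rows or list members given for context, or are said to be named after their values were seen. The number of arrays, 2 per group, limits the precision. Alternatives were quantile, median and cyclic loess scaling, the letter as a block, a filter on dim genes, trended and robust eBayes, averaging all rows per gene, subunit by structure, and leaving out each sample. The letters A and B showed no broad shift shared by the groups. Over 19938 genes the deviations of A from the group means correlated with r = 0.0132 between the groups. With 2 samples per group this cannot settle whether the samples were paired.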

Additional observations from a re-analysis of the deposited data

How the results depend on the processing

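With 2 samples per group and 1 line per genotype, the counts of calls depended on the scaling and on single samples. The 21 genes called higher on the deposited values became 6 after quantile normalization, 6 when both scalings were required, 7 after cyclic loess, 1 after median centring and 5 with quantile normalization and the letter as replicate block. The 16 called lower became 30, 16, 30, 48 and 28 in the same order. The replicate block on the deposited values left 18 and 13. No share of all genes called is given here for cyclic loess, median centring, the replicate block or a left-out sample. Those counts therefore cannot be set against all genes. Median centring moved the difference of every gene down by the same amount, for example Mrps2 from 0.625 to 0.28 and Mrps15 from 0.31 to -0.035. Leaving out 1 sample gave 0 to 5 higher and 0 to 8 lower on the deposited values, and 0 to 1 higher and 14 to 17 lower on quantile values. The median difference of the Mrpl genes, 0.0175, became -0.20 after quantile normalization with or without the replicate block, -0.33 (-0.3275) after median centring and -0.21 after cyclic loess, and ran from -0.035 to 0.025 over the samples left out (quantile -0.206 to -0.161, with -0.1925 without KrasD12 A and -0.186 without KrasD12 B). That of the Mrps genes, 0.06, became -0.1475, -0.285 and -0.15 in the same order, and ran from 0.02 to 0.075 (quantile -0.162 to -0.116, with -0.14 without WT B). Median centring turned Mrps15 to -0.035, Mrpl10 to -0.235, Mrpl12 to -0.04, Mrpl44 to -0.31, Mrps18a to -0.03 and Mrps36 to -0.095. Mrpl44 was -0.21 (-0.209) after quantile normalization with or without the replicate block, -0.22 after cyclic loess, -0.045 without KrasD12 A and 0.115 without KrasD12 B, and -0.30 (-0.296), -0.12 (-0.121), -0.24 (-0.2375) and -0.18 on quantile values without KrasD12 A, KrasD12 B, WT A and WT B. Mrps36 was -0.04 after quantile normalization with or without the replicate block, -0.05 (-0.0507) after cyclic loess, and -0.12 (-0.116) and -0.08 (-0.08375) on quantile values without KrasD12 A and WT B. Mrpl10 was -0.045 on quantile values without KrasD12 B. The cause of these changes was not tested. The fits with quantile normalization and the block or a left-out sample were added after seeing the data.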
